A study of Mus musculus with 8 samples.

Results

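Enteroendocrine cells are the rare hormone-secreting cells of the intestinal epithelium, and 10 of their product genes were followed here across 8 microarrays: the peptide hormone genes Ghrl, Sst, Cck, Gcg, Gip, Sct, Pyy and Nts, and the granin genes Chga and Chgb. They were chosen by name as products of these cells, with earlier results of these data known. Every probe that the platform's gene table assigns to them was used, which gave 13 probes for 10 of the 15123 genes measured. Each array set RNA of Lgr4 null crypt cells against RNA of wild-type crypt cells. The null mice carry the Lgr4/Gpr48 Gt gene-trap allele back-crossed onto the CD1 strain, and the wild-type mice are CD1, both per the labels. Crypt cells were compared on day 0 of culture, taken here as fresh crypts, on day 0.5, on day 1, and on day 1 with LiCl added. Each group has 2 arrays. Lithium chloride (LiCl) blocks the kinase GSK3 and thereby stabilises beta-catenin. The Lgr4 protein binds R-spondins, which amplify Wnt signals, and the allele acts in the whole animal and not in 1 cell type. The labels name intestinal crypt cells without a gut segment or an age, and no sort of cells is named. Enteroendocrine cells are a minor part of such an epithelium. In such bulk RNA, fewer cells of a type and less RNA per cell cannot be told apart.

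Enteroendocrine cells arise from secretory progenitors that switch on Neurog3, and they sense nutrients at the gut lumen and release peptides from their base. By the classical naming, Ghrl (ghrelin) marks X cells, Sst (somatostatin) D cells, Cck (cholecystokinin) I cells, Gip K cells, Sct (secretin) S cells, Nts (neurotensin) N cells, and Gcg (proglucagon, the source of GLP-1) and Pyy (peptide YY) L cells, although single cells can make several of these hormones. The chromogranins Chga and Chgb are acidic proteins that pack hormones into dense core granules, and they are used as markers of endocrine cells in general.

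Every value below is a log2 ratio of null over wild type, so a positive value is higher in null crypts. This direction is the likely one, because the labels put the null RNA in channel 1 and genes of Paneth cells, which the series title names, were lower, and the base of the logarithm was taken as 2. No intensities were used, so a level, a ratio between genes or a signal over background cannot be given, nor can it be said whether a marker was expressed. The LiCl arrays correlated below 0 with all arrays of the other groups (r from -0.58 to -0.12 over 12 pairs of arrays, across genes, which are not independent replicates). Their direction is therefore not settled. The labels give LiCl-treated wild-type crypts as their second RNA (1 source name leaves the LiCl out), whereas the series text speaks of control cells, so the LiCl results are repeated below with the opposite sign. Paneth cell markers had mean ratios of -1.52 and -1.74 at day 0 but 0.22 and 0.045 with LiCl, near 0 under either sign. Turning the sign therefore does not cover every reading, and whether the LiCl arrays compare the genotypes was not tested. Whether the arrays of a group came from separate cultures or animals is not stated in the labels, so each p-value measures the spread between arrays, which may be technical. Lgr4 itself was not analysed here.

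**Figure D1:**
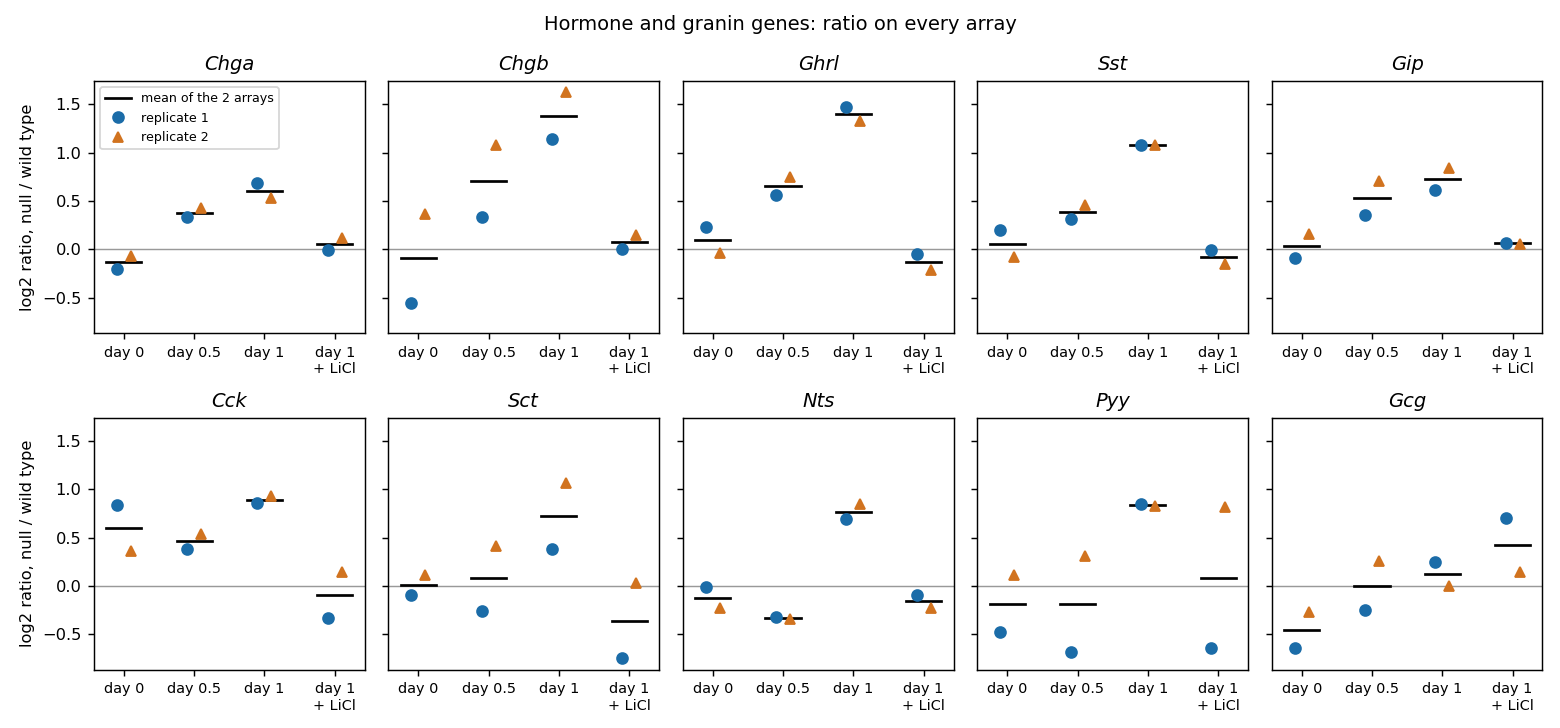
Log2 ratio of null over wild type (vertical axis) for each hormone and granin gene on the 8 arrays, by culture group (horizontal axis); circles are replicate 1, triangles replicate 2 and bars the mean of both. All 10 genes lie above 0 on both day 1 arrays, and only there.

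After 1 day of culture, both granins and most of the hormone genes were higher in null than in wild-type crypts. Of the 10 genes 7 passed a Benjamini-Hochberg adjusted p under 0.05 over all genes in limma, all of them higher, where 9.38% of all genes were called higher and 20.5% in either direction. The 7 were Ghrl, Chgb, Sst, Cck, Nts, Gip and Chga, while Pyy, Sct and Gcg did not pass. The median ratio of the 10 genes was 0.81, against 0.00 over all genes. All 10 were above 0 on both day 1 arrays, where 49.1% and 51.5% of all genes were. Above 0.5 lay 8 of the 10 on replicate 1 and 9 on replicate 2, against 9.11% and 9.46% of all genes.

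Chgb, the granin with the larger ratio, had 1.14 and 1.62 on the day 1 arrays. Its other arrays gave -0.55 and 0.36 at day 0, 0.34 and 1.09 at day 0.5, and 0.01 and 0.15 with LiCl. Both day 1 arrays lay above all other arrays of this gene. The fitted ratio at day 1 was 1.38 ± 0.22 (limma standard error, n = 2 arrays), a 2.61-fold difference (95% interval 0.87 to 1.90 on the log2 scale, adjusted p = 0.00439). Chga had 0.69 and 0.53 at day 1, after -0.20 and -0.06 at day 0 and 0.33 and 0.43 at day 0.5, with 0.00 and 0.12 on the LiCl arrays. Its day 1 arrays were again the highest, and the fitted ratio was 0.61 ± 0.10, a 1.53-fold difference (adjusted p = 0.0053). The 2 probes of Chga disagreed. Tested alone, one gave 0.21 ± 0.14 at day 1 (adjusted p = 0.424) and the other 1.01 ± 0.11 (adjusted p = 0.00088), where 18.5% of all probes passed. So the value for Chga is an average of a probe that passed and one that did not.

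Ghrl, which encodes the appetite-stimulating hormone ghrelin, showed the largest ratio of the 10. The day 1 arrays gave 1.47 and 1.32, and the arrays before them 0.23 and -0.04 at day 0 and 0.57 and 0.75 at day 0.5. With LiCl the values were -0.05 and -0.21. No array of another group reached those of day 1. The fitted day 1 ratio was 1.40 ± 0.11, or 2.63-fold (adjusted p = 0.000363), and its 2 probes gave 1.48 ± 0.15 and 1.31 ± 0.17. By fitted ratio Ghrl ranked 98 and Chgb 106 of 15123 genes from the highest, and their 95% intervals overlapped.

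Sst encodes somatostatin, which restrains the release of other gut hormones. It had 1.08 on both day 1 arrays, and its values were 0.20 and -0.08 at day 0, 0.32 and 0.46 at day 0.5, and -0.01 and -0.15 with LiCl. The replicates at day 1 differed less than in any other group of this gene. The fitted ratio was 1.08 ± 0.11, a 2.12-fold difference (adjusted p = 0.000717).

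Cck, the hormone that makes the gall bladder contract, differed least between day 1 and day 0 among the 10 genes. It had 0.84 and 0.36 at day 0, 0.39 and 0.54 at day 0.5 and 0.86 and 0.93 at day 1, with -0.33 and 0.15 on the LiCl arrays. All 6 untreated arrays were above 0, and day 1 exceeded the higher day 0 array only narrowly. The fitted day 1 ratio was 0.89 ± 0.13, or 1.86-fold (adjusted p = 0.00286). At day 0 it was 0.60 ± 0.13 and did not pass (adjusted p = 0.0704, limma), at rank 286 from the highest.

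Nts encodes neurotensin, a peptide released after a fatty meal. It had -0.01 and -0.23 at day 0 and -0.32 and -0.34 at day 0.5, but 0.69 and 0.85 at day 1, and -0.09 and -0.22 with LiCl. Of the 6 untreated arrays only those of day 1 were above 0. The fitted day 1 ratio was 0.77 ± 0.11, a 1.71-fold difference (adjusted p = 0.00256), with 0.64 ± 0.14 and 0.90 ± 0.17 for its 2 probes. Gip encodes the incretin of K cells, which raises insulin release. Its values were -0.09 and 0.16 at day 0, 0.36 and 0.71 at day 0.5, 0.61 and 0.84 at day 1, and 0.07 and 0.06 with LiCl. The ranges of day 0.5 and day 1 overlapped. At day 1 the fitted ratio was 0.73 ± 0.12, or 1.66-fold (adjusted p = 0.00469).

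Of the 3 genes that did not pass at day 1, Pyy and Sct had fitted ratios within the range of those that did, with wider errors. Pyy, a hormone that slows gut transit, had 0.85 and 0.83 at day 1, but its arrays lay far apart in the other groups, at -0.47 and 0.11 at day 0, -0.68 and 0.31 at day 0.5 and -0.64 and 0.82 with LiCl. Its fitted day 1 ratio was 0.84 ± 0.35 (95% interval 0.02 to 1.66, adjusted p = 0.156). Sct, whose product stimulates bicarbonate secretion, had 0.39 and 1.07 at day 1, -0.09 and 0.12 at day 0, -0.26 and 0.42 at day 0.5, and -0.75 and 0.03 with LiCl. The fitted ratio at day 1 was 0.73 ± 0.25 (95% interval 0.13 to 1.32, adjusted p = 0.0927). With the replicate number as a block in the fit, Sct (adjusted p = 0.0031) and Pyy (adjusted p = 0.00273) both passed at day 1 in limma, though the labels do not say what a number shares. Gcg had 0.25 and 0.00 at day 1, after -0.64 and -0.27 at day 0 and -0.25 and 0.26 at day 0.5, with 0.71 and 0.15 on the LiCl arrays as deposited. Its fitted day 1 ratio was 0.13 ± 0.17 (95% interval -0.28 to 0.53, adjusted p = 0.753), at rank 4034 from the highest, below the other 9 genes. Gcg and Pyy are both assigned to L cells, and the interval of Gcg overlapped that of Pyy.

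**Figure D2:**
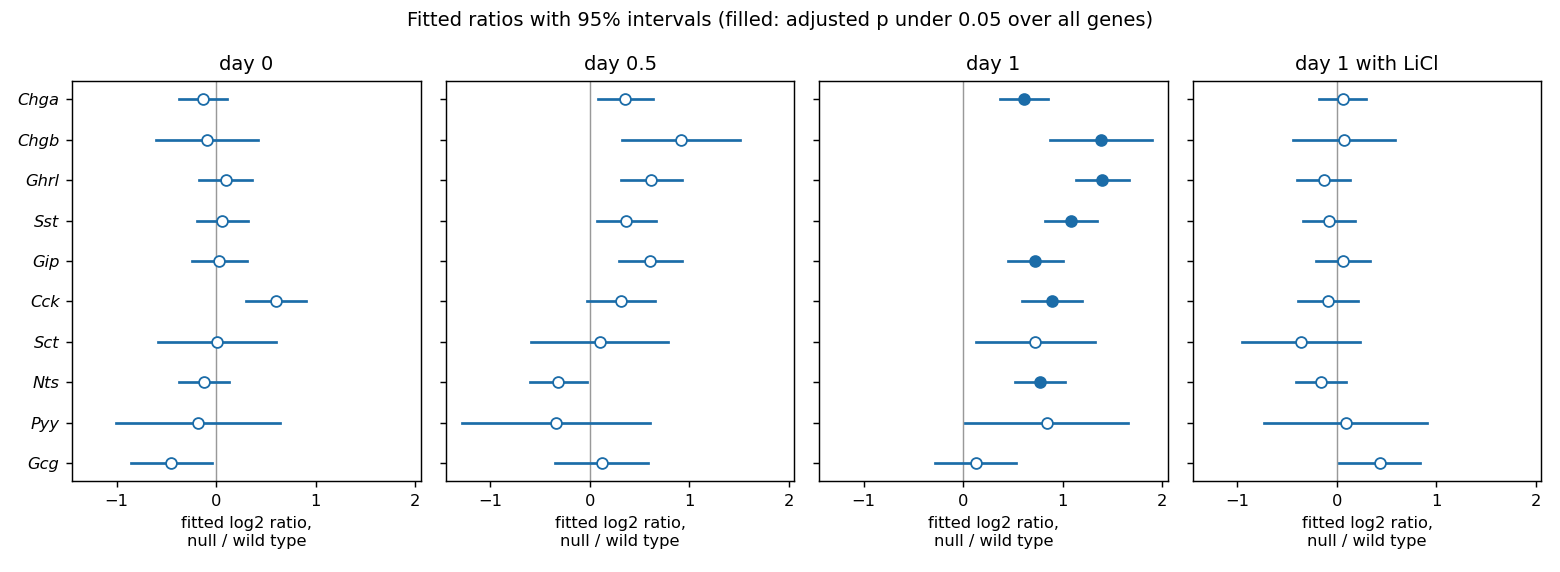
Fitted log2 ratio of null over wild type (horizontal axis) with its 95% interval for each gene (vertical axis) at day 0, day 0.5, day 1 and day 1 with LiCl; filled points passed an adjusted p under 0.05 over all genes. Of the 10 genes 7 are filled at day 1 and 0 in each of the other groups.

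The day 1 calls depend on having both arrays of the group. Without day 1 replicate 1, Ghrl, Sst, Cck and Nts still passed, 4 of the 10 (6.03% of all genes), and without day 1 replicate 2 only Ghrl and Sst, 2 of the 10 (8.53% of all genes), where the lone array left is assumed to vary like the other groups. Without the LiCl arrays in the fit 9 passed (21.6% of all genes), with Sct (adjusted p = 0.0287) and Pyy (adjusted p = 0.0462) added in limma. The fitted ratio of Gcg changed sign, to -0.23 without day 1 replicate 1, and those of the other 9 genes stayed above 0 under these settings.

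Before day 1 none of the 10 genes passed. At day 0 limma called 0 of the 10 (2.23% of all genes), with 2 at an unadjusted p under 0.05, 5 genes above 0 and a median of -0.04. At day 0.5 it again called 0 (0.436% of all genes), with 6 at an unadjusted p under 0.05, 8 genes above 0 and a median of 0.34. The largest fitted values at day 0.5 were those of Chgb (0.92 ± 0.25, adjusted p = 0.207), Ghrl (0.62 ± 0.13, adjusted p = 0.126) and Gip (0.61 ± 0.14, adjusted p = 0.14, limma). Both day 0.5 arrays carry the null RNA in Cy5, so the fitted value there is corrected for the dye and can differ from the array mean. The 10-gene mean on single arrays was -0.08 and 0.04 at day 0, 0.08 and 0.46 at day 0.5, and 0.80 and 0.91 at day 1. Ratios of all genes also spread more widely on the day 1 arrays (standard deviations 0.519 and 0.485) than on the others (0.262 to 0.323). With the arrays scaled to equal spread, the day 1 median of the 10 genes was 0.635 instead of 0.805. Then 7 of the 10 still passed at day 1, where 11.8% of all genes were called.

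The change of the ratio between times was tested directly. At day 1 the ratio rose against day 0 for 6 of the 10 genes, where 3.6% of all genes rose: Chgb by 1.48 ± 0.31 (adjusted p = 0.031, limma), Ghrl by 1.30 ± 0.16 (adjusted p = 0.00512), Sst by 1.02 ± 0.15 (adjusted p = 0.00999), Nts by 0.89 ± 0.15 (adjusted p = 0.0148), Chga by 0.74 ± 0.14 (adjusted p = 0.0236) and Gip by 0.70 ± 0.17 (adjusted p = 0.0473). For Cck the change was 0.29 ± 0.18 and did not pass (adjusted p = 0.439), beside a day 0 ratio that was already above 0 on both arrays. These calls rest on every array involved. Nearly all were lost when any 1 array of day 0 or day 1 was left out, as were most calls over all genes. The median change of the 10 genes, 0.815 with all arrays, was then 0.616 without day 0 replicate 1 and 0.849 without day 0 replicate 2. It was 1.024 without day 1 replicate 1 and 0.817 without day 1 replicate 2. With the arrays scaled to equal spread the calls numbered 1 (Ghrl), where 2.54% of all genes were called in either direction. After quantile normalization they numbered 0, where 1.48% of all genes were called. Between day 0.5 and day 0, 0 of the 10 changed (0.132% of all genes), with 4 at an unadjusted p under 0.05. At day 1 against day 0.5 only the ratio of Nts rose, by 1.09 ± 0.16 (adjusted p = 0.0289, limma), where 0.555% of all genes rose, and this call was lost without any 1 of the 6 untreated arrays. For the other 9 genes day 1 and day 0.5, next to each other in the order of the ratios, could not be separated by this test.

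With LiCl the day 1 ratios of the 10 genes lay near 0. limma called 0 of the 10 there (2.58% of all genes, or 4.91% with the LiCl sign turned), with 1 gene, Gcg at 0.43 ± 0.17, at an unadjusted p under 0.05. The median was -0.01 over a range from -0.36 (Sct) to 0.43 (Gcg). Compared with day 1 without LiCl, the ratio was lower with LiCl for 7 of the 10 genes, where 8.53% of all genes were lower. Ghrl was at -0.13 with LiCl and 1.40 without it, a difference of -1.53 ± 0.16 (adjusted p = 0.000905, limma). Chgb differed by -1.31 ± 0.31, Sst by -1.16 ± 0.15, Cck by -0.98 ± 0.18, Nts by -0.93 ± 0.15, Gip by -0.66 ± 0.17 and Chga by -0.55 ± 0.14. Because most LiCl ratios lay near 0, turning their sign could change these differences little, so the turned values are no separate check. With the sign turned 6 of the 10 genes were lower (3.09% of all genes), namely Ghrl (-1.27 ± 0.13), Chgb (-1.46 ± 0.27), Sst (-1.01 ± 0.14), Gip (-0.79 ± 0.16), Chga (-0.67 ± 0.14) and Nts (-0.62 ± 0.14). Cck at -0.80 ± 0.22 did not pass (adjusted p = 0.074, limma). For Sct the difference was -1.08 ± 0.36 as deposited and -0.37 ± 0.24 turned, and it passed in neither. The difference for Gcg changed sign between the readings, at 0.30 ± 0.24 as deposited and -0.56 ± 0.25 turned, and passed in neither. As deposited, fewer of the 10 genes passed when any 1 array of these groups was left out, and fewer of all genes did too. The median difference of the 10 genes was then -1.11 without day 1 replicate 1 and -0.67 without day 1 replicate 2. It was -0.70 without LiCl replicate 1 and -1.07 without LiCl replicate 2. These comparisons share the day 1 arrays with those above, and whether the LiCl arrays hold treated or untreated wild-type RNA in the other channel bears on what the difference compares.

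**Figure D3:**
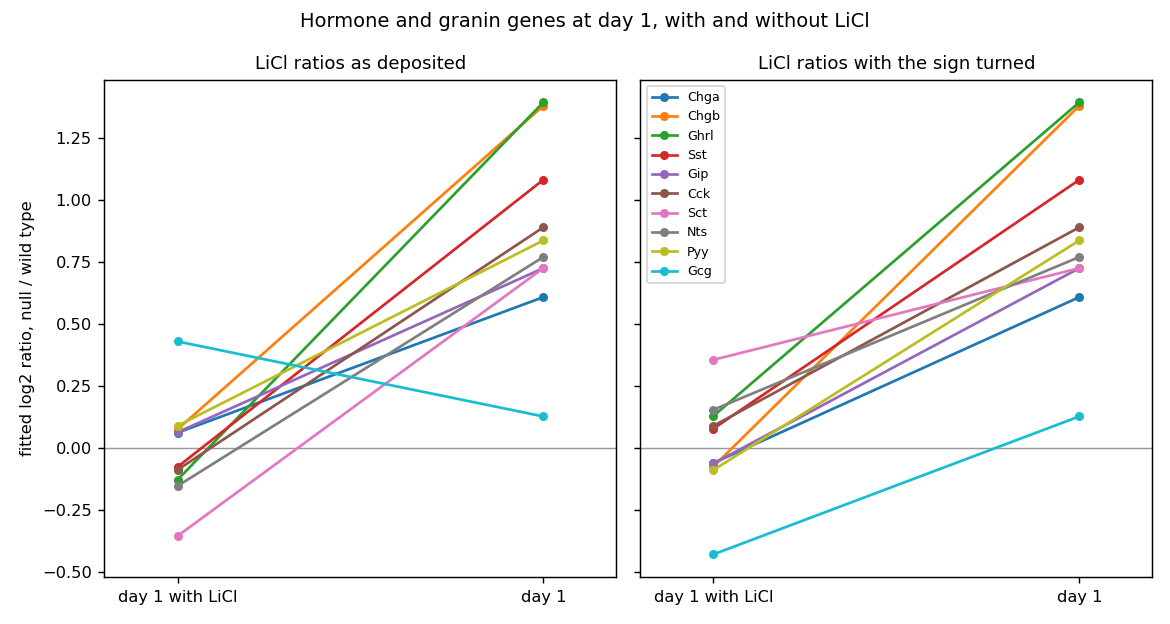
Fitted log2 ratio of null over wild type (vertical axis) for each gene at day 1 with LiCl (left) and at day 1 without it (right), with the LiCl ratios as deposited in one panel and with their sign turned in the other; lines join the values of a gene. At day 1 with LiCl the ratio is lower than at day 1 without it for 9 of the 10 genes as deposited and for all 10 with the sign turned.

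Genes that make, process and release gut hormones were measured on the same arrays. At day 1, 9.38% of all genes were called higher and 11.1% lower. Of 23 other hormone and transmitter genes 7 were higher and 0 lower, with a median of 0.06. The largest were Ddc at 1.47 ± 0.11, an enzyme of serotonin synthesis, Retnlb at 0.97 ± 0.16, Tac1, the precursor of substance P, at 0.90 ± 0.15 and Guca2b (uroguanylin) at 0.90 ± 0.13. Retnlb is a goblet cell product and stands in that list too, as does Guca2a (0.70 ± 0.10), another of the 7. Of 28 genes of prohormone processing and dense core granules 5 were higher and 0 lower, with a median of 0.22. Cpe, a carboxypeptidase that trims prohormones, was at 1.14 ± 0.14, Scg5, the chaperone of a prohormone convertase, at 0.89 ± 0.12, Pam, which amidates peptide ends, at 0.86 ± 0.20, and the prohormone convertase Pcsk1 at 0.67 ± 0.15. The granin genes Scg2 and Scg3 of this list did not pass, at 0.25 ± 0.11 and 0.19 ± 0.14.

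The transcription factors of the endocrine lineage were called in both directions about as often as all genes, of which 9.38% were higher and 11.1% lower. Of 21 measured, 2 were higher, Neurod2 at 1.59 ± 0.14 and Neurod1, which acts after Neurog3, at 0.95 ± 0.16. Another 2 were lower, Neurog3, which commits progenitors to the endocrine fate, at -0.93 ± 0.17 (adjusted p = 0.0082, limma) and Foxa1 at -0.45 ± 0.12. The median was 0.09. Of 17 receptor genes for the hormones 1 was lower, the somatostatin receptor Sstr3 at -1.06 ± 0.16. Of 13 genes for nutrient sensing and hormone release 1 was higher, the fatty acid receptor Ffar4 at 0.54 ± 0.14. With LiCl, limma called 0 genes of these 5 lists, with 10 at an unadjusted p under 0.05.

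**Figure D4:**
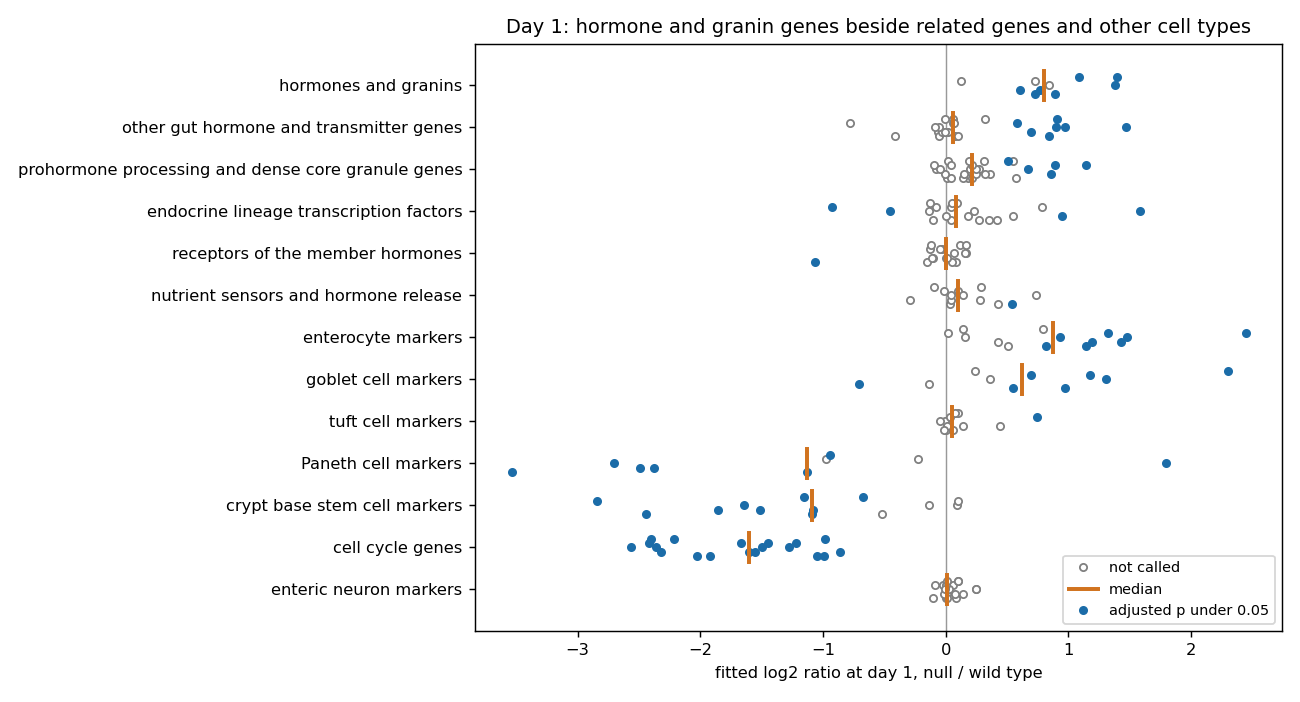
Fitted log2 ratio of null over wild type at day 1 (horizontal axis) for every measured gene of each list (vertical axis), with filled points at an adjusted p under 0.05 over all genes and bars at the list median. The hormone and granin genes have a median of 0.81, enterocyte markers 0.87 (with Pdgfb, matched in error, among them) and cell cycle genes -1.61.

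Markers of some other cell types moved at day 1 as well, where 9.38% of all genes were called higher and 11.1% lower. Of 14 genes read as enterocyte markers 8 were higher. The mean ratio of the 14 was 0.99 and 0.84 on the day 1 arrays, 0.74 and 0.39 at day 0 and -0.59 and -0.60 with LiCl. These 14 include Pdgfb (0.02 ± 0.10 at day 1), a growth factor gene and no enterocyte marker. It was matched through an old synonym in place of the listed marker Sis, and it enters the means. Of 10 goblet cell markers 6 were higher and 1 lower, with means of 0.66 and 0.69 at day 1. Paneth cell markers were lower for 6 of 9 and higher for 1 (means -1.36 and -1.44). Crypt base stem cell markers were lower for 9 of 13 (means -1.31 and -0.96) and cell cycle genes lower for 19 of 19 (means -1.83 and -1.58). On the LiCl arrays as deposited, the means were 0.22 and 0.045 for Paneth cell markers and 0.25 and 0.21 for stem cell markers. Those of the cell cycle genes were 0.67 and 0.63. Of 12 tuft cell markers 1 was higher, near the share over all genes. Of 10 immune cell markers 2 were lower, Lyz2 at -1.31 and H2-Ab1 at -0.65, not far from the share over all genes. The means of the immune cell markers were -0.22 and -0.29 at day 1 and -1.23 and -1.30 at day 0. For 5 of these 10 the ratio rose at day 1 against day 0, where 3.6% of all genes rose. Of 10 mesenchyme markers 1 was higher, Vim at 1.02, again near the share over all genes, with means of 0.07 and 0.16. Of 6 endothelium markers 0 were called and 0 had an unadjusted p under 0.05. The part of these cell types in the ratios of the hormone genes was not tested. Because Sst, Nts, Tac1 and the granins are also made by nerve cells, markers of enteric neurons were read too. Of 19 of them limma called 0 at day 1 and 0 had an unadjusted p under 0.05, with fitted ratios from -0.11 to 0.24 and means of 0.04 and 0.05 on the arrays. Of the 3 measured markers of glia 0 were called, and 1 had an unadjusted p under 0.05.

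The start regions of the 10 genes were searched on both strands for TGACG, the core of the cAMP response element, a motif known from the somatostatin promoter, in the 250 bases before the RefSeq start site (build GRCm38.p6). The RefSeq table holds 4 start regions for Ghrl and 2 for Pyy, of which the one at the gene's outer end was used, and 1 for each other gene. The other start regions of Ghrl and Pyy hold no match either. The motif occurred in 5 of the 10 (Sst, Cck, Nts, Chga and Chgb), against 17.8% of the 32851 start regions in the same table. The matches of Chga, Chgb and Cck are shown within 120 bases upstream of the start site, beside Ghrl, which has the largest ratio and no match, and those of Sst and Nts within 30 bases. Each runs 5′ to 3′ on the gene's strand, with TGACG or its reverse complement CGTCA in capitals. They lie at chr12:102554821-102554940 (plus strand) for Chga, chr2:132781522-132781641 (plus) for Chgb, chr9:121495695-121495814 (minus) for Cck, chr6:113719912-113720031 (minus) for Ghrl, chr16:23890874-23890903 (minus) for Sst and chr10:102490568-102490597 (minus) for Nts.
Chga: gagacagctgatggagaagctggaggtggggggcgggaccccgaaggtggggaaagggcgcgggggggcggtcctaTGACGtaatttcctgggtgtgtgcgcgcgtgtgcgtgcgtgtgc
Chgb: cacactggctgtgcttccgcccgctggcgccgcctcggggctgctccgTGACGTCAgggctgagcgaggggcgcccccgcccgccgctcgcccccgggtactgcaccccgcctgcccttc
Cck: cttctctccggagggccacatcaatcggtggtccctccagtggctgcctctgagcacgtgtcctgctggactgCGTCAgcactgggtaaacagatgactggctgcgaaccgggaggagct
Ghrl: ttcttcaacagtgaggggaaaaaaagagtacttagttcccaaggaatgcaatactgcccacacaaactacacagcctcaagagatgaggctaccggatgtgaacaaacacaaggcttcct
Sst: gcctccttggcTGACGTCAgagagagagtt
Nts: aattagggaagatCGTCActttccatcaag

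In Sst and Chgb the motif on one strand overlaps that on the other, giving a run of 8 capitals. It starts at position -48 in Sst, -44 in Chga, -72 in Chgb, -47 in Cck and -166 in Nts, counted back from the start site. All 5 genes with the motif passed at day 1, as did Ghrl and Gip, which lack it in this window, while Gcg, Pyy and Sct, also without it, did not. Pyy and Sct nevertheless had fitted ratios within the range of the genes that passed, and a link of the motif to the ratios was not tested. A match is a description of the letters and not of a bound site. Of 3 further motifs searched in the same way, TATAAA occurred in 2 of the 10 genes (Gcg and Sct, 12.4% of all start regions), CAGATG in 3 (Cck, Gcg and Sct, 14.4%) and CAGCTG in 5 (Ghrl, Gip, Sct, Nts and Chga, 13.0%).

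Across the 8 arrays the 10 genes followed each other unequally. The median Pearson correlation over their 45 pairs was 0.62, with a range from -0.56 to 0.99, as a description of arrays that share groups. Over the 6 arrays without LiCl the median was 0.75 and the range 0.11 to 0.99, and with the LiCl sign turned 0.61 and 0.19 to 0.99. The closest pair was Ghrl and Sst (r = 0.99). Gcg had a median correlation of 0.10 with the other 9 genes over the 8 arrays as deposited, 0.73 without the LiCl arrays and 0.69 with their sign turned. The 8 other genes most like the mean of the 10 were Abhd2 (r = 0.99), Mall, Ecm1, Onecut2, Arhgef11, Pdlim2, Dgka and Tor4a, out of 3710 genes that spanned at least 1. Over the 6 arrays without LiCl 3 of these 8 were again among the closest, Abhd2, Mall and Pdlim2, and with the LiCl sign turned 4 of the 8 were. Abhd2 had 1.43 and 1.73 at day 1, -0.01 and 0.01 at day 0, 0.15 and 0.67 at day 0.5, and -0.08 and 0.08 with LiCl. The genes closest to single hormone genes mostly changed with the LiCl arrays. Of the 7 genes called at day 1 only Gip had the same closest gene over the 8 arrays and over the 6 without LiCl, Nomo1 (r = 0.987 and 0.996). With the LiCl sign turned Gip had Lmna (r = 0.985). Dgkq for Ghrl (r = 0.990 and 0.995) and Slc35d1 for Cck (r = 0.972 and 0.964) were second over the 8 arrays and first over the 6. With the LiCl sign turned neither was among the 2 closest.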

How the data were processed

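The authors deposited a log ratio per probe for each 2-colour array, taken here as log2 values. Per the labels' protocols, total RNA was amplified with aminoallyl nucleotides, the product was coupled to a Cy dye, and null and wild-type RNA were hybridised together to MEEBO oligonucleotide arrays. How the ratios were corrected and normalized, and their logarithm base, is not given in the sources used here. The hormone and granin genes and all gene lists were chosen with earlier results of these data known.

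Of 38467 probes 22305 had 1 gene symbol and were no controls, for 15123 genes. Each array was centred on its median over all probes and the probes of a gene were averaged. The 8 arrays were fitted together in limma 3.58.1 (R 4.3.3) with a mean per group and a term for the dye of the null RNA (Cy5 on both day 0.5 arrays per the labels, against the dye swaps of the series text), with eBayes moderation (residual degrees of freedom 3, prior 4.09). Values were adjusted by Benjamini-Hochberg over all genes, with calls at an adjusted p under 0.05, and 0 genes were called for the dye. Changes with time or LiCl are contrasts within it. The alternatives were another probe summary, scaling, dye coding, variance moderation and filter, turned or left-out LiCl arrays (turning them for the pattern search was chosen after seeing the data), a replicate block and leaving out each array. Named genes are all 10 members, from each other list the called genes with the largest ratios (at most 4), and the genes closest in pattern (Pearson correlation). The closest genes of single members are given only if they held without the LiCl arrays. Scg2 and Scg3, other granins outside this rule, were added after their values were seen. Guca2a, also outside it, is named for standing in the goblet cell list as well. Columns of other series numbered 0. Upstream sequences and coordinates are from RefSeq (GRCm38.p6), read with Python 3.11.15 and pandas 2.3.3; no genome was used, and precursor proteins were not analysed here. The number of arrays limits the precision.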

Additional observations from a re-analysis of the deposited data

Results flagged for a closer look

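For 7 of the 10 genes the ratio of null over wild type differed between groups by limma's test of the difference itself. Between day 1 and day 0 the ratio was higher at day 1 by 1.30 for Ghrl, 1.02 for Sst, 0.70 for Gip, 0.89 for Nts, 0.74 for Chga and 1.48 for Chgb, where 3.6% of all genes rose. These calls numbered 0 after quantile normalization and 0 to 1 when a day 0 or day 1 array was left out. Between day 1 and day 0.5 it was higher at day 1 by 1.09 for Nts, where 0.555% of all genes rose. Between day 1 with LiCl and day 1 without it, the difference was -1.53 for Ghrl, -1.16 for Sst, -0.98 for Cck, -0.66 for Gip, -0.93 for Nts, -0.55 for Chga and -1.31 for Chgb, with the LiCl ratios as deposited, where 8.53% of all genes were lower. Groups of 2 arrays were too small for a test of single outlying arrays.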

How the results depend on the processing

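Counts of the 10 genes called. At day 1 (7) the count ran from 2 to 9 when 1 array was left out, and was 9 with the replicate block. For day 1 against day 0 (6) it ran from 0 to 6 in the leave-outs, and was 8 with the replicate block, 1 with arrays scaled to equal spread and 0 after quantile normalization. For day 1 against day 0.5 (1) it ran from 0 to 1 in the leave-outs, and was 3 with no dye term, 2 with the replicate block, 3 with the LiCl sign turned, and 0 with scaled arrays, quantile normalization or each probe by itself. For LiCl against day 1 (7) it ran from 2 to 7 in the leave-outs and was 9 with the replicate block and 4 with either scaling. At day 0 (0) it was 1 with the replicate block, Cck (adjusted p = 0.041, limma). At day 0.5 (0) it was 1 with no dye term, 2 with replicate 2 taken as a dye swap and 1 with the replicate block. At day 1 quantile normalization left 5, without Chga (adjusted p = 0.051) and Chgb (adjusted p = 0.0627). The cause was not tested, beyond the fewer arrays of each leave-out. Over all genes the replicate block called 25.3% at day 1, 13% for day 1 against day 0 and 23.6% for LiCl against day 1. For LiCl against day 1, equal spread called 17% of all genes and quantile normalization 13.1%.

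Counts over all genes moved too. At day 0 (337) it was 610 with the replicate block and 525 with the LiCl sign turned, and 26 to 305 in the leave-outs. At day 0.5 (66) it was 341 with no dye term, 321 with replicate 2 as a dye swap, 237 with the block, 124 after quantile normalization, 238 with the LiCl sign turned, 112 without the genes of lowest spread, and 9 to 50 in the leave-outs. At day 1 (3103) it was 1780 with scaled arrays, 1089 after quantile normalization, and 912 to 3270 in the leave-outs. With LiCl (390) it was 922 with the block, 1444 scaled, 767 quantile, 743 turned, and 4 to 301 in the leave-outs. Between day 0.5 and day 0 (20) it was 116 with no dye term, 82 as a dye swap, 56 with the block, 3 scaled, 7 quantile, 5 without LiCl arrays, 91 turned, 66 filtered, and 0 to 16 in the leave-outs. For day 1 against day 0 (1269) it was 1964 with the block, 384 scaled, 224 quantile, and 110 to 1358 in the leave-outs. For day 1 against day 0.5 (301) it was 611 with no dye term, 577 as a dye swap, 633 with the block, 0 scaled, 0 quantile, 690 turned, and 0 to 287 in the leave-outs. For LiCl against day 1 (2856) it was 1033 turned and 1484 to 2824 in the leave-outs.

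The replicate numbers are shared between groups, but the labels do not say what a number shares. Deviations of same-numbered arrays correlated at 0.21 to 0.28 over genes, and the replicate block brought Sct and Pyy past the threshold at day 1. Of 1500 values of single hormone and granin genes under the alternatives 56 had the opposite sign, 0 of them for a result called as reported. Signal over background is unknown.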

Other observations

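Some of the 10 genes differed between replicate numbers in all 4 groups. Chgb was higher on replicate 2 than on replicate 1 in 4 of 4 groups, by 0.91 at day 0, 0.75 at day 0.5, 0.48 at day 1 and 0.14 with LiCl. Sct was also higher on replicate 2 in 4 of 4 groups, by 0.21 to 0.78. Pyy was higher on replicate 2 by 0.59 at day 0, 0.99 at day 0.5 and 1.47 with LiCl, while the day 1 arrays differed by -0.03. These differences were not tested.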
